A study of Equus caballus with 68 samples.

Results

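The genes described here encode 8 proteins with which an antigen presenting cell shows peptides to T cells and sets how the T cells respond: CIITA, CD74, CD80, CD86, CD40, CD83, CD274 and PDCD1LG2. They were chosen by symbol, and each of the 8 symbols belonged to 1 of the 30371 genes listed, so no member was missing. All 8 passed the filter on low values that left 14570 genes for testing.

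Bone marrow mononuclear cells (BMNC) of 8 adult Thoroughbred horses, 2 of them mares and the others geldings, aged 3 to 9 years and free of joint disease, were isolated on a density gradient. RNA was sequenced from BMNC before culture (0 hours, n = 8) and from BMNC grown with cell-free synovial fluid of the same horse as the medium. Synovial fluid, the fluid of a joint, was either normal (SF, from untreated middle carpal joints) or inflamed (ISF, from radiocarpal joints given lipopolysaccharide, a bacterial cell wall component that sets off inflammation). Cultures were harvested at 48 hours (n = 7 per fluid), 96 hours (n = 8), 6 days (n = 8) and 10 days (n = 7), with at most 1 library per horse and fluid at a harvest. Moon had no library at 48 hours and Flash none at 10 days. The cultures are mixed cell populations and were not sorted, no culture without synovial fluid was sequenced, and the fluids came from different joints as well as differing in inflammation.

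Class II major histocompatibility complex (MHC) molecules are paired chains that carry peptides from ingested material to CD4 T cells. CIITA is the coactivator that switches on class II genes, and CD74, the invariant chain, blocks the peptide groove of new class II molecules until they reach the compartment where peptides are loaded. CD80 and CD86 bind CD28 on T cells and provide the second signal for T cell activation, or bind CTLA4 and restrain it. CD40 receives the signal of CD40LG from activated T cells, and CD83 is a surface protein of activated dendritic cells and B cells. CD274 (PD-L1) and PDCD1LG2 (PD-L2) are the ligands of the inhibitory receptor PD-1, encoded by PDCD1. B cells, dendritic cells and macrophages all use these molecules, while BMNC before culture also hold T cells and granulocyte precursors.

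Levels are in GeTMM (reads per kilobase with a scaling factor for each library) and differences as log2 fold changes on the log2(GeTMM + 1) scale, which understates changes of genes near 1 GeTMM. A gene was called at a false discovery rate (FDR) under 0.05 in 1 limma fit of all libraries. The 68 libraries held 15.7 to 36.0 M reads on genes (median 22.3 M). Over 200 genes that separate the horses, 66 libraries correlated best with other libraries of the labelled horse. The 96-hour ISF library labelled Dealings correlated best with Dreamer (r = 0.938), and that labelled Dreamer with Dealings (r = 0.905). The SF library of Moon at 6 days stood apart, with the highest GeTMM sum (2321940) and the lowest weight when libraries were weighted (0.0304). The differences of the 8 genes between the fluids at 96 hours and 6 days, and the list counts that change, are therefore also given without these libraries. The main fit has no horse term, so exchanged labels of Dealings and Dreamer within ISF at 96 hours would leave its values unchanged. They would affect the fit with the horse as a block, fits that leave out either horse, and counts of horses involving that group. A fit without these libraries also has fewer libraries.

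By 10 days CIITA, CD74 and CD83 were lower in ISF than in SF, while CD80 and CD86 were higher. In ISF compared with SF, none of the 8 genes was called at 48 hours, where limma called 1.68% of all genes tested (0.872% higher and 0.81% lower). No member had an unadjusted p under 0.05 at that time, and none was called with limma voom on recovered reads. At 96 hours 1 gene was lower in ISF, PDCD1LG2, beside 4.3% of all genes, and none was higher, beside 6.16%. At 6 days 3 genes were higher (CD80, CD86 and CD40), beside 16.7% of all genes, and 1 was lower (CIITA), beside 13.6%. At 10 days 2 genes were higher (CD80 and CD86), beside 9.95% of all genes, and 3 were lower (CIITA, CD74 and CD83), beside 10.8%. The median log2 fold change of the 8 genes was 0.01, -0.32, -0.24 and -0.56 at the 4 time points, while that of all genes lay between -0.02 and 0.

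**Figure D1:**
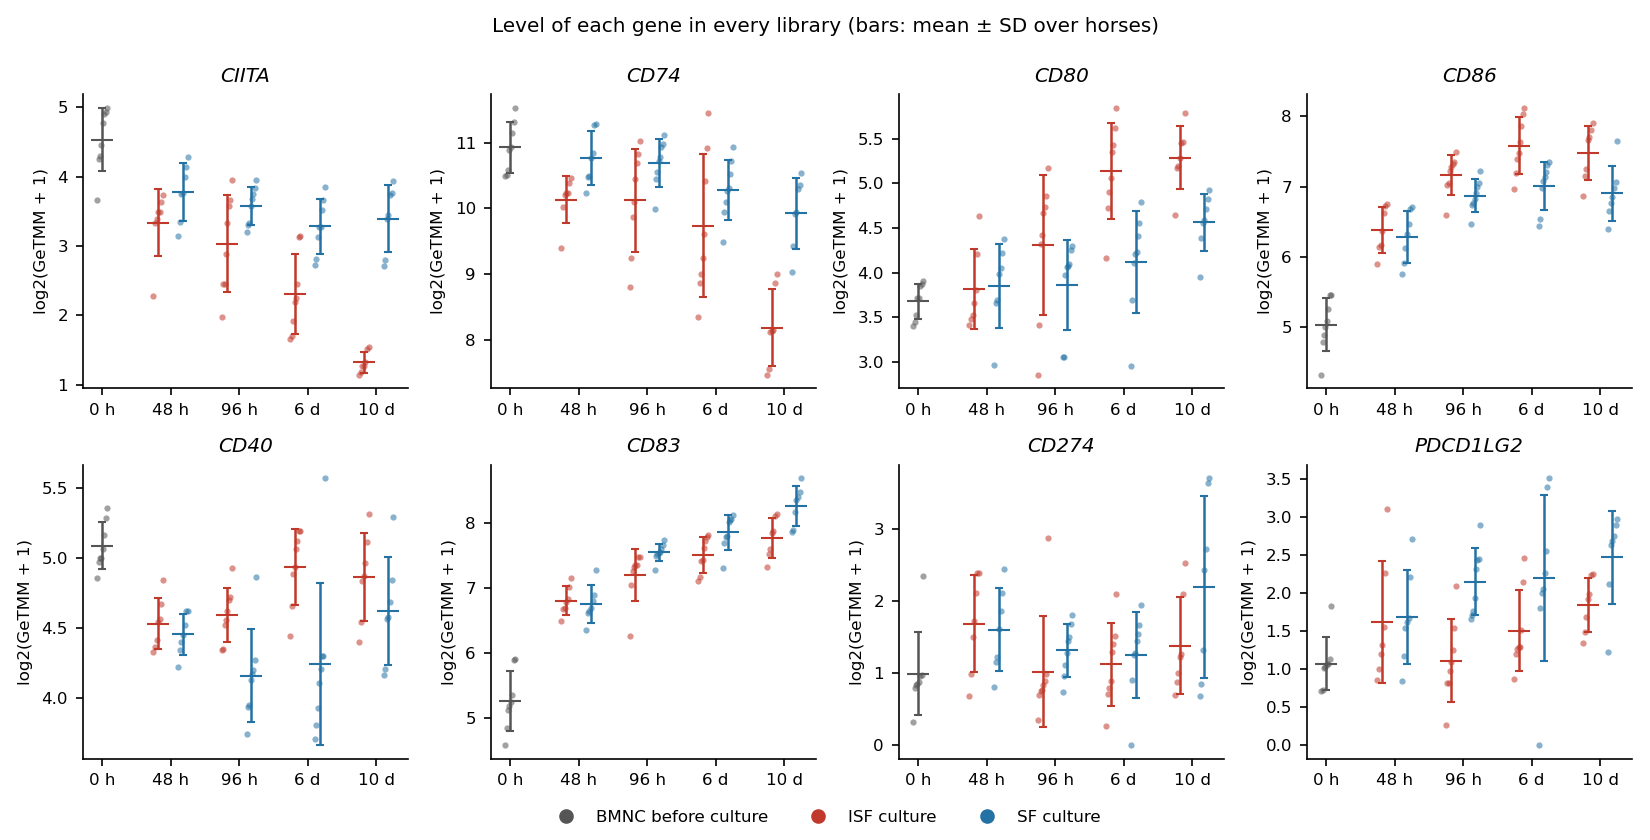
Level of each of the 8 genes in all 68 libraries, as log2(GeTMM + 1) on the vertical axis, before culture (gray) and at 4 times in ISF (red) and SF (blue), with 1 point per horse and bars for the mean ± SD. CIITA and CD74 are lowest in ISF at 10 days, CD80 and CD86 lie higher in ISF than in SF from 6 days, and CD274 and PDCD1LG2 have the lowest levels outside ISF at 10 days, where CIITA is lowest.

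CIITA fell in culture and fell further in ISF than in SF. Before culture it was at 11.7 to 30.9 GeTMM (median 23.7). In SF it was at 7.87 to 18.6 GeTMM at 48 hours (median 12.7), 8.24 to 14.5 at 96 hours (median 11.4), 5.64 to 13.4 at 6 days (median 8.71) and 5.56 to 14.3 at 10 days (median 9.97). In ISF it was at 3.86 to 12.3 GeTMM at 48 hours (median 10.2), 2.94 to 14.5 at 96 hours (median 7.74), 2.16 to 7.81 at 6 days (median 3.67) and 1.21 to 1.91 at 10 days (median 1.42). The ranges of the fluids overlapped at the first 3 time points and were separate at 10 days, when the highest ISF library lay below the lowest SF library.

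At 10 days CIITA averaged 1.51 ± 0.272 GeTMM in ISF (SD, n = 7) against 10.02 ± 3.35 in SF (SD, n = 7), a 6.62-fold difference. On the log2 scale ISF differed from SF by -0.44 ± 0.25 (SE) at 48 hours (FDR 0.419), -0.54 ± 0.23 at 96 hours (FDR 0.121), -0.98 ± 0.23 at 6 days (FDR 0.000738) and -2.08 ± 0.25 at 10 days (FDR 4.6e-09). CIITA was lower in the ISF culture of the same horse in 6 of 7 horses at 48 hours, 7 of 8 at 96 hours, 7 of 8 at 6 days and 7 of 7 at 10 days. The difference at 96 hours was called with the horse as a block (FDR 0.0393) and without Flash (-0.73, FDR 0.0431), and was -0.70 (FDR 0.0761) without the 96-hour libraries of Dealings and Dreamer from ISF, which left 5 of 6 horses with the lower value in ISF. At 6 days it was -1.05 (FDR 0.000383) without the SF library of Moon.

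The difference between the fluids itself changed over time for CIITA. From 48 hours to 10 days it became larger by 1.63 ± 0.35 on the log2 scale, toward lower values in ISF (interaction term, FDR 0.0032), and CIITA was the 1 member called, beside 1.41% of all genes called in that direction. The same term was called lower for 4 of 10 entries of the class II list described below, and higher for 0. Among marker genes, also described below, it was called lower for 5 of 5 of T cells, 3 of 9 of dendritic cells and 1 of 7 of B cells, and higher for 0 of each. Over single intervals no member was called for a change of this kind, beside 0.0206% of all genes in the first (48 to 96 hours), 0.0% in the next (96 hours to 6 days) and 0.226% in the last (6 to 10 days). At an unadjusted p under 0.05 the limma fit had 1 member in the first of these intervals (PDCD1LG2), 0 in the second and 2 in the last (CIITA and CD74), and limma voom on recovered reads called 0 in each. With the horse as a block, the change of CIITA from 6 to 10 days, -1.10 on the log2 scale, was called (FDR 0.0314). Without Moon, that of CD40 was (-0.70, FDR 0.043).

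CD74 was the most abundant of the 8 genes per kilobase in every group and followed CIITA to a lower level in ISF at 10 days. Before culture it was at 1452 to 2957 GeTMM (median 1923). At 10 days it was at 176 to 511 GeTMM (median 279) in ISF and at 522 to 1490 (980.3) in SF, with no overlap between the fluids. Separate ranges were found for CD74 and CIITA alone of the 8 genes at 10 days (4.96% of all genes), and for none at 48 hours (1.06%), 96 hours (2.11%) or 6 days (3.34%).

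The ISF and SF levels of CD74 overlapped at 48 hours, 96 hours and 6 days, by 1 SF library at 48 hours, when CD74 was at 672 to 1403 GeTMM in ISF and 1197 to 2503 in SF. At 6 days CD74 ranged from 326 GeTMM in the ISF culture of RimRun to 2803 in that of Flash (median 693), and from 718 to 1960 (median 1249) in SF. Between ISF and SF the log2 fold change was -0.63 ± 0.32 at 48 hours (FDR 0.358), -0.57 ± 0.30 at 96 hours (FDR 0.232), -0.55 ± 0.30 at 6 days (FDR 0.157) and -1.74 ± 0.32 at 10 days (FDR 3.4e-05). The ISF culture of a horse had the lower value in 7 of 7 horses at 48 hours, 5 of 8 at 96 hours, 5 of 8 at 6 days and 7 of 7 at 10 days. Without Flash, the difference at 6 days was called (-0.85, FDR 0.0261). It was -0.49 (FDR 0.214) there without the SF library of Moon, and at 96 hours -0.72 (FDR 0.186) without the 96-hour libraries of Dealings and Dreamer from ISF.

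The proportion of CD74 to CIITA varied between groups. Their ratio, both per kilobase, was 73.3 to 124 (median 85.2) before culture, 105 to 518 (median 218) in ISF at 6 days, and 116 to 364 (median 195) in ISF at 10 days. In SF the ratio was 80.8 to 280 (median 134) at 6 days and 54.8 to 226 (median 103.6) at 10 days. The ranges of the fluids overlapped for this ratio at both times.

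**Figure D2:**
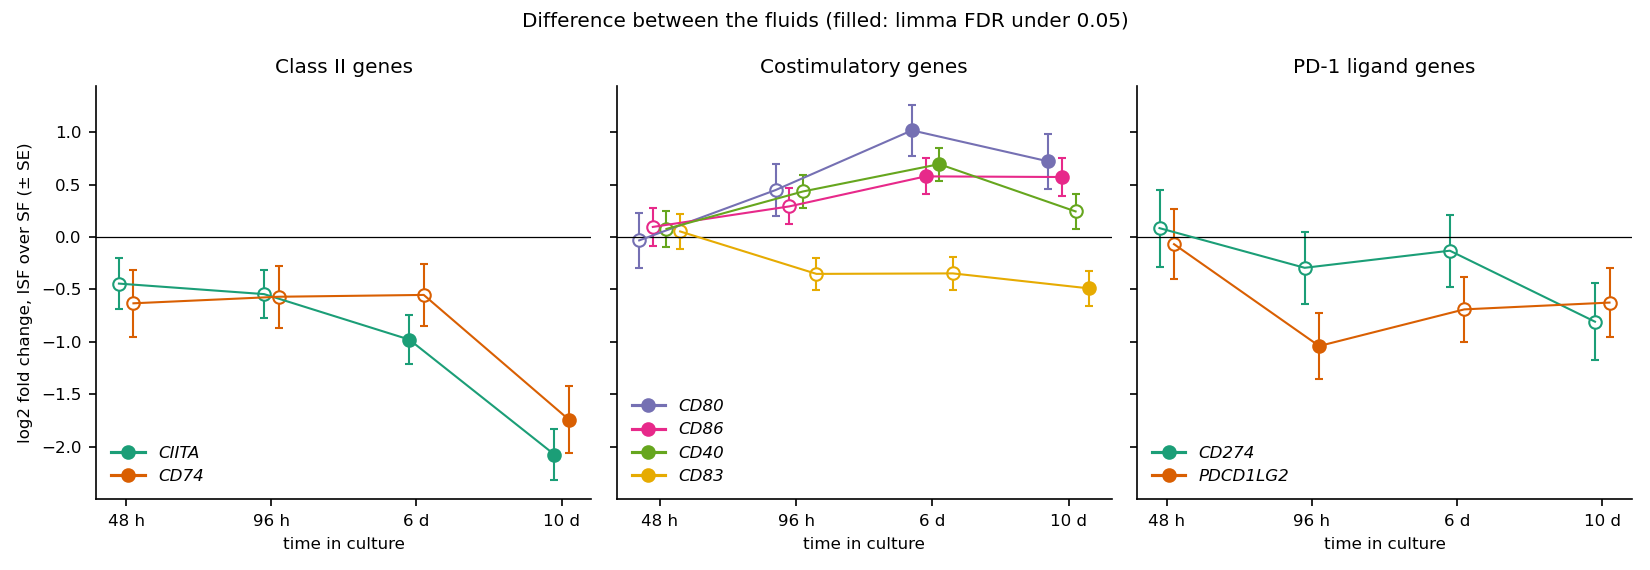
Log2 fold change of ISF over SF (vertical axis, ± SE from limma) at 4 times in culture for the class II genes, the costimulatory genes and the PD-1 ligand genes. Filled points have an FDR under 0.05, and the largest differences are those of CIITA (-2.08) and CD74 (-1.74) at 10 days.

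The genes of the class II chains and of the factors that exchange their peptides were lower in ISF at 10 days for most entries of their list, as CIITA and CD74 were. The list held 10 entries that were tested, of which 0, 1, 5 and 8 were called lower in ISF at 48 hours, 96 hours, 6 days and 10 days, and none higher, beside the shares of all genes given above (at most 13.6% lower). At 48 hours 3 entries had an unadjusted p under 0.05 in limma, and limma voom on recovered reads called 0. Their median log2 fold change was -0.49, -0.59, -0.82 and -1.76 at these times. The list has 3 entries with the symbol DRB, copies that can share reads, so the split of reads between them is uncertain, and MHCB3, whose symbol does not say to which class it belongs.

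HLA-DMA, a subunit of the exchange factor that removes the CD74 fragment from the groove, had the lowest value of the list at 6 and 10 days. It was at a mean of 83.9 GeTMM in ISF and 181 in SF at 6 days (log2 fold change -1.34, FDR 0.000289), and at 28.1 and 179 GeTMM at 10 days (-2.55). DRA, the alpha chain of the DR molecule, had means of 1130 and 1253 GeTMM at 6 days (-0.44, FDR 0.246) and of 338 and 958 at 10 days (-1.46, FDR 0.00019). HLA-DOB, a subunit of the inhibitor of that exchange factor, was called lower in ISF at 96 hours (means of 7.73 and 16.5 GeTMM, -0.96, FDR 0.043). That call was lost with limma voom, which called 0 entries of the list at 96 hours, and without the 96-hour libraries of Dealings and Dreamer from ISF (-1.01, FDR 0.0735). The entries not called at 10 days were 1 of the DRB copies (-1.12, FDR 0.108) and MHCB3 (-0.43, FDR 0.428).

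**Figure D3:**
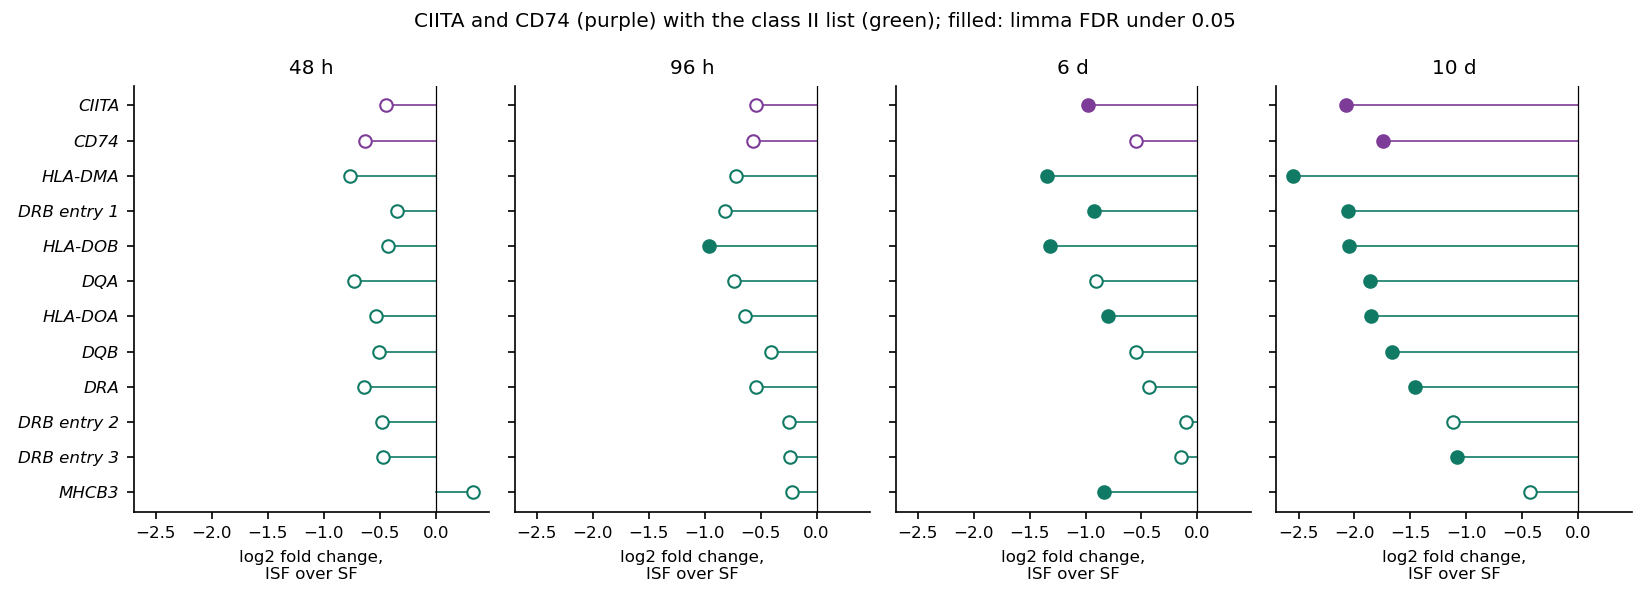
Log2 fold change of ISF over SF (horizontal axis) at 4 times for CIITA and CD74 (purple) and the 10 entries of the class II list (green), with filled points at an FDR under 0.05. At 10 days 8 of the 10 entries are filled, between -2.55 for HLA-DMA and -1.09 for 1 DRB entry.

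The factors that bind class II promoters with CIITA did not move together. Of the 8 genes in their list, which also holds NLRC5, 1 was higher and 3 were lower in ISF at 6 days. At 10 days 1 was higher and 2 were lower, and NLRC5 was 1 of the genes called lower at both times. The shares of all genes were 16.7% higher and 13.6% lower at 6 days, and 9.95% and 10.8% at 10 days. RFXANK of the RFX complex was not called (17.7 against 28.0 GeTMM at 6 days, log2 fold change -0.38, FDR 0.0535). RFXAP, a subunit of the RFX complex, was higher in ISF (42.8 against 17.4 GeTMM at 6 days, log2 fold change 1.37, FDR 2.6e-08), while RFX5, which binds DNA in the same complex, was lower (14.0 against 20.1 GeTMM, -0.49, FDR 0.00107). NLRC5, the relative of CIITA that acts on class I genes, was lower in ISF at 6 days (4.05 against 6.70 GeTMM, -0.66, FDR 0.00609) and at 10 days (2.72 against 8.32, -1.33, FDR 1.8e-06).

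Interferon gamma is the main inducer of CIITA outside B cells and dendritic cells. A list for its signaling, which also holds the transcription factors IRF4 and IRF8, had 10 genes tested. Of these, 2 were higher and 2 lower (IRF4 and IRF8) in ISF at 6 days, beside 16.7% and 13.6% of all genes. At 10 days 0 were higher and 2 lower, beside 9.95% and 10.8% of all genes. At 6 days IRF4, a transcription factor of B cells and some dendritic cells, was lower (0.81 against 3.07 GeTMM, log2 fold change -1.07, FDR 0.00051), and JAK2, the kinase of the receptor, was higher (28.3 against 18.7 GeTMM, 0.73, FDR 0.00297; 0.42, FDR 0.0103, without the SF library of Moon). IRF1, a transcription factor that interferon gamma induces, had means of 18.3 GeTMM in ISF and 77.1 in SF at 10 days (log2 fold change -1.47, FDR 0.0039). IRF8, a transcription factor of monocytes, dendritic cells and B cells, was lower in ISF at 96 hours (-0.41, FDR 0.0157), 6 days (-0.56, FDR 0.000184) and 10 days (-0.88), and its call at 96 hours was lost without those ISF libraries of Dealings and Dreamer (-0.39, FDR 0.0528).

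Marker genes of lymphocytes moved in the same direction as the class II genes. So did 5 of 6 neutrophil precursor markers at 6 days and 5 of 5 stromal markers at 10 days, as given below. Of 7 B cell and 5 T cell markers, 0 and 0 were called lower in ISF at 48 hours, beside 0.81% of all genes. At 96 hours 1 and 0 were, beside 4.3%. An unadjusted p under 0.05 in limma was found for 0 and 0 at 48 hours and for 5 and 5 at 96 hours. Median sums at 96 hours were 31.0 GeTMM in ISF and 62.4 in SF for B cells, and 45.1 and 90.1 for T cells. All 7 B cell markers were lower in ISF at 6 days (6 with limma voom) and at 10 days, beside 13.6% and 10.8% of all genes. Their summed level was 2.81 to 19.1 GeTMM (median 9.86) in ISF and 9.00 to 183 (67.3) in SF at 10 days. All 5 T cell markers were lower in ISF at 6 and 10 days, beside the same shares. Their sums were 4.33 to 14.8 GeTMM (median 7.61) in ISF and 23.5 to 199 (103) in SF at 10 days. Of the 9 dendritic cell markers tested, 1, 2, 1 and 0 were higher and 0, 1, 2 and 3 were lower in ISF at the 4 times, beside the shares of all genes given above. Their summed level, which follows the most abundant genes, had medians of 90.3, 115, 108 and 80.2 GeTMM in ISF and of 75.7, 72.6, 98.3 and 188 in SF. The median of the sum was thus lower in ISF only at 10 days. The mean log2 level of the list was 2.472, 1.939, 1.669 and 1.473 in ISF and 2.284, 1.965, 1.835 and 1.956 in SF. By that measure, which was not tested, the list was lower in ISF from 96 hours. The difference was smaller than the SD of either fluid at 96 hours (0.170 in ISF and 0.214 in SF). The same held at 6 days (0.200 and 0.229). At 6 days FLT3, a growth factor receptor of dendritic cell precursors, was lower in ISF (-1.45, FDR 3e-06) and BATF3, a transcription factor of dendritic cells, was higher (1.22, FDR 0.00115). No gene of these lists was at 0 in every library of a group. The part of these cells in the levels of CIITA, CD74 and the class II genes was not tested, and in such mixed cultures fewer cells of a type cannot be told apart from less RNA per cell.

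**Figure D4:**
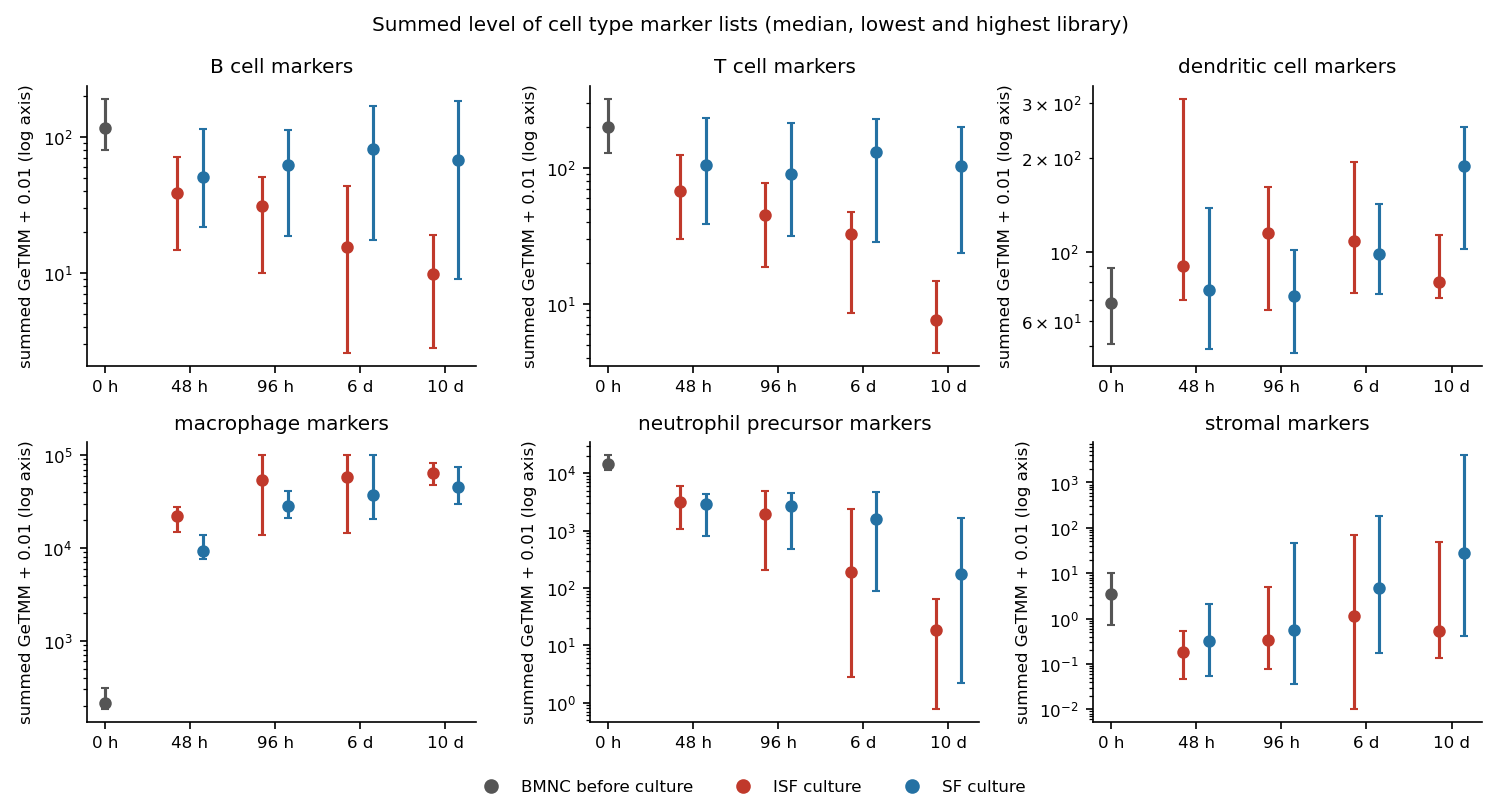
Summed GeTMM of 6 lists of cell type markers on log axes, before culture (gray) and at 4 times in ISF (red) and SF (blue), with points for the median library and bars from the lowest to the highest. The medians of the B cell and T cell lists lie lower in ISF than in SF at all 4 times. The macrophage list rises from a median of 212 GeTMM before culture to 64175 in ISF and 45561 in SF at 10 days.

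CD80 and CD86, the ligands of CD28, were higher in ISF from 6 days. CD80 was at 9.57 to 14.0 GeTMM (median 12.1) before culture. At 6 days it was at 17.0 to 56.5 GeTMM (median 36.0) in ISF and 6.75 to 26.7 (17.6) in SF, and at 10 days at 23.9 to 54.2 (38.1) and 14.5 to 29.3 (23.2). The ranges overlapped at both times, although the ISF culture of the same horse had the higher value in 8 of 8 horses at 6 days and 6 of 7 at 10 days.

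For CD80 the log2 fold change of ISF over SF was -0.03 ± 0.26 at 48 hours (FDR 0.985), 0.45 ± 0.24 at 96 hours (FDR 0.26), 1.02 ± 0.24 at 6 days (FDR 0.000945) and 0.72 ± 0.26 at 10 days (FDR 0.0398). Without the SF library of Moon the difference at 6 days was 0.85 (FDR 0.00414). The call at 10 days was lost without the filter on low values (FDR 0.0582) and when Catnip, Dealings, Dreamer, Lurie or RimRun was left out (FDR 0.0701 to 0.103). At 96 hours the difference was 0.30 (FDR 0.585) without the 96-hour libraries of Dealings and Dreamer from ISF.

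CD86 was at 19.0 to 42.9 GeTMM (median 32.0) before culture and exceeded CD80 in all 68 libraries. At 6 days it was at 124 to 277 GeTMM (median 187) in ISF and 85.7 to 162 (137) in SF, and at 10 days at 115 to 239 (201) and 82.9 to 199 (115). The fluids overlapped at every time point. CD86 had a log2 fold change of 0.10 ± 0.18 at 48 hours (FDR 0.885), 0.29 ± 0.17 at 96 hours (FDR 0.308), 0.58 ± 0.17 at 6 days (FDR 0.00746) and 0.57 ± 0.18 at 10 days (FDR 0.0195). CD86 was higher in ISF in 8 of 8 horses at 96 hours, 7 of 8 at 6 days and 5 of 7 at 10 days.

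Both calls of CD86 depended on single horses. The call at 6 days was lost without Dreamer (0.42, FDR 0.0847), and was kept without the SF library of Moon (0.59, FDR 0.00742). The call at 10 days was lost when only the 2 groups were fitted (FDR 0.0532) and without Catnip, Dreamer, Lurie or Moon (FDR 0.0672 to 0.097). At 96 hours the difference was 0.22 (FDR 0.58) without the 96-hour libraries of Dealings and Dreamer from ISF, and CD86 was higher in ISF in 6 of the 6 horses left.

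The balance of both ligands was followed as a ratio, with no test. The ratio of CD86 to CD80 per kilobase was 1.81 to 4.32 (median 2.67) before culture and had medians of 4.82 to 6.55 in ISF and 5.55 to 7.90 in SF. At 10 days it was 3.49 to 6.25 in ISF and 3.38 to 7.87 in SF, so the fluids overlapped over most of their range.

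CD28, the receptor of CD80 and CD86, was itself higher in ISF. It had a mean of 5.25 GeTMM before culture, 225 in ISF and 63.7 in SF at 6 days (log2 fold change 1.96, FDR 3.1e-05), and 168 and 78.1 at 10 days (1.24, FDR 0.0176). The T cell markers went the other way, as given above, and CD3E, a chain of the T cell receptor complex, had means of 2.46 GeTMM in ISF and 27.2 in SF at 10 days (-2.78). CTLA4, the inhibitory receptor of the same ligands, had a mean of 1.18 GeTMM before culture and of at most 0.411 in the cultures, and was called at no time point.

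CD40 was lower in both fluids than before culture at 48 hours, and was higher in ISF than in SF at 6 days. It was at 27.9 to 39.9 GeTMM (median 31.7) before culture. At 48 hours it was at 19.1 to 27.6 GeTMM (median 22.3) in ISF and 17.6 to 23.6 (20.9) in SF, below every library before culture. At 6 days it was at 20.7 to 35.6 GeTMM (median 31.0) in ISF and 12.1 to 46.4 (16.8) in SF, where the highest value was that of Moon and the next was 18.7.

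CD40 had a log2 fold change of 0.08 ± 0.17 at 48 hours (FDR 0.905), 0.43 ± 0.16 at 96 hours (FDR 0.0652), 0.69 ± 0.16 at 6 days (FDR 0.000488) and 0.24 ± 0.17 at 10 days (FDR 0.332). Without the SF library of Moon the difference at 6 days was 0.88 (FDR 4.7e-07), and each of the other 7 horses had the higher value in ISF. The difference at 96 hours was called with the horse as a block (FDR 0.0146), when only the groups compared were fitted (FDR 0.0322), without the 6-day SF library of Moon (FDR 0.0143) and without all libraries of Moon (0.52, FDR 0.00367). It was 0.36 (FDR 0.218) without the 96-hour libraries of Dealings and Dreamer from ISF. Of 11 tested genes of the signal from CD40 to NF-kappaB, limma called 0 at each of the 4 time points, as did limma voom on recovered reads. An unadjusted p under 0.05 was found for 0 of them up to 6 days and for 4 at 10 days, and the largest difference at 6 days was that of NFKB1 (0.31, FDR 0.203).

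CD83 rose in both fluids in the first 48 hours and was lower in ISF than in SF at 10 days. It was at 22.9 to 58.7 GeTMM (median 36.3) before culture. At 10 days it was at 159 to 281 GeTMM (median 229) in ISF and 232 to 411 (324) in SF, so the fluids overlapped while every cultured library lay above those before culture. Its log2 fold change was 0.05 ± 0.16 at 48 hours (FDR 0.943), -0.35 ± 0.15 at 96 hours (FDR 0.136), -0.35 ± 0.15 at 6 days (FDR 0.0792) and -0.49 ± 0.16 at 10 days (FDR 0.0255).

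Within horses, CD83 was lower in ISF in 8 of 8 horses at 96 hours, 6 of 8 at 6 days and 7 of 7 at 10 days. The call at 10 days was lost without Dealings (FDR 0.103) or RimRun (FDR 0.0999). At 6 days CD83 was called lower in ISF without the SF library of Moon (-0.42, FDR 0.0261). At 96 hours the difference was -0.43 (FDR 0.117) without the 96-hour libraries of Dealings and Dreamer from ISF.

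**Figure D5:**
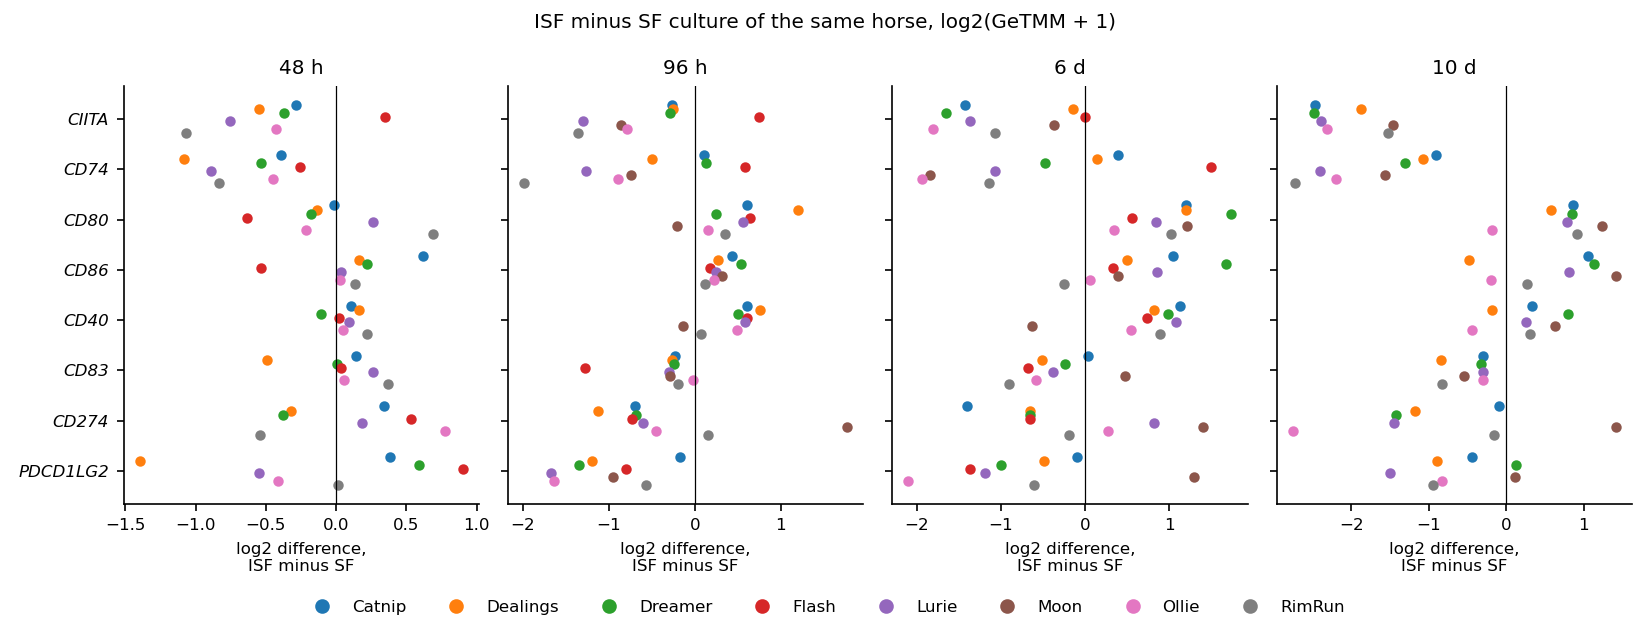
Difference between the ISF and SF culture of the same horse in log2(GeTMM + 1) (horizontal axis) for the 8 genes at 4 times, with 1 point per horse. At 10 days CIITA, CD74 and CD83 lie below 0 in 7 of 7 horses, and CD80 lies above 0 in 6 of 7.

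The PD-1 ligands had the lowest group means of the 8 genes outside ISF at 10 days, where CIITA (1.51 GeTMM) was below CD274 (1.89) and PDCD1LG2 (2.699). CD274 had 0 to 308 reads per library and PDCD1LG2 0 to 190, with 60 or more reads in every library for each of the other 6 genes. Both were at 0 reads in the SF library of Moon at 6 days, which allows up to 0.24 GeTMM of CD274 and 0.352 of PDCD1LG2 at 3 reads (counting error only). The groups of both genes overlapped at all 4 time points.

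PDCD1LG2 was lower in ISF at 96 hours. It was at 0.205 to 3.28 GeTMM (median 1.06, 3 to 41 reads) in ISF and 2.18 to 6.46 (3.41, 31 to 89 reads) in SF, and the ISF value was lower in 8 of 8 horses. Over the series its log2 fold change was -0.07 ± 0.33 at 48 hours (FDR 0.968), -1.04 ± 0.31 at 96 hours (FDR 0.0213), -0.69 ± 0.31 at 6 days (FDR 0.0854) and -0.63 ± 0.33 at 10 days (FDR 0.183).

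The calls of PDCD1LG2 depended on single horses. At 96 hours the FDR was 0.0531 without the 96-hour libraries of Dealings and Dreamer from ISF, with a difference of -1.04 and 6 of 6 horses lower in ISF, and 0.0628 to 0.084 without Dealings, Dreamer, Lurie or Ollie. At 6 days PDCD1LG2 was called lower in ISF with the horse as a block (FDR 0.0266), and without the SF library of Moon, which is at 0, the difference was -1.005 (FDR 0.00427). The ISF value was lower in 7 of 8 horses at 6 days, the other being Moon.

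CD274 was called in no comparison of the fluids. At 10 days it was at 0.618 to 4.75 GeTMM (median 1.33, 13 to 100 reads) in ISF and 0.613 to 12.01 (4.38, 12 to 308 reads) in SF. The SF values were uneven, with 12.01 GeTMM in Dealings and 11.4 in Ollie but below 1 in Moon and RimRun. The log2 fold change was 0.08 ± 0.37 at 48 hours (FDR 0.962), -0.29 ± 0.34 at 96 hours (FDR 0.669), -0.13 ± 0.34 at 6 days (FDR 0.816) and -0.81 ± 0.37 at 10 days (FDR 0.111). Without Moon, the horse with the opposite sign, the difference at 10 days was called (-1.18, FDR 0.00878). At 6 days it was -0.31 (FDR 0.515) without the SF library of Moon, and at 96 hours -0.23 (FDR 0.806) without the 96-hour libraries of Dealings and Dreamer from ISF.

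The receptor of both ligands, PDCD1, was lower in ISF at 6 days (mean 5.84 against 14.8 GeTMM, log2 fold change -1.52, FDR 0.00222). At 10 days its means were 7.65 and 16.1 GeTMM (-1.04, FDR 0.0729). PDCD1 was at 2.42 GeTMM before culture, below its mean in either fluid at these times. In the gene order of the RefSeq horse assembly TB-T2T, CD274 and PDCD1LG2 are neighbors. Their ratio per kilobase ranged from 0.56 to 3.25 over the ISF libraries and from 0.39 to 1.67 over the SF libraries at 48 hours. At 96 hours it ranged from 0.22 to 8.24 in ISF and from 0.28 to 0.75 in SF. At 10 days the ranges were 0.27 to 2.14 in ISF and 0.15 to 1.98 in SF.

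Over time, CIITA and CD40 fell and CD86 and CD83 rose in both fluids within the first 48 hours. In ISF from 0 to 48 hours 2 genes rose, beside 25.3% of all genes, and 3 fell, beside 27.4%. In SF 2 genes rose, beside 22.3% of all genes, and 2 fell, beside 23.1%. CD83 rose by 1.54 ± 0.16 on the log2 scale in ISF (FDR 1.3e-12) and by 1.48 ± 0.16 in SF (FDR 6.1e-12). CD86 rose by 1.35 ± 0.18 in ISF (FDR 2.5e-09) and by 1.25 ± 0.18 in SF (FDR 2.6e-08). For both genes every horse had the higher value at 48 hours.

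In the same interval CIITA fell by 1.199 ± 0.24 in ISF (FDR 2.1e-05) and by 0.75 ± 0.24 in SF (FDR 0.00723). CD40 fell by 0.56 ± 0.16 in ISF (FDR 0.00318) and by 0.63 ± 0.16 in SF (FDR 0.00103). CD74 fell by 0.79 ± 0.31 in ISF (FDR 0.0251), a call lost without Dealings, Dreamer or RimRun (FDR 0.0565 to 0.0685), and its change in SF was -0.16 ± 0.31 (FDR 0.706). CD80, CD274 and PDCD1LG2 were called in neither fluid from 0 to 48 hours.

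From 48 to 96 hours 1 gene rose in ISF, CD86, beside 8.54% of all genes, and 2 rose in SF, CD86 and CD83, beside 11.5%. CD86 rose by 0.78 ± 0.18 in ISF (FDR 0.00082) and by 0.59 ± 0.18 in SF (FDR 0.00927), and CD83 rose by 0.80 ± 0.16 in SF (FDR 7.5e-05). With the horse as a block, CD80 (FDR 0.0132) and CD83 (FDR 0.0372) were also called higher in ISF, and CD40 was called lower in SF (FDR 0.0394). Leaving out Moon, CD80 (0.69, FDR 0.00995) was called higher and CD274 (-0.93, FDR 0.0267) lower in ISF, and CD40 (-0.40, FDR 0.0139) lower in SF, while leaving out Flash CD83 (0.53, FDR 0.0115) was called higher in ISF. Whether these intervals differ between the fluids is given by the interaction terms above.

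From 96 hours to 6 days 1 gene rose in ISF, beside 2.83% of all genes, and 1 fell, beside 3.54%. None was called in SF, where limma called 2.05% of all genes. CD80 rose by 0.83 ± 0.24 in ISF (FDR 0.0266), in 8 of 8 horses. The call was lost when only the groups compared were fitted (FDR 0.117) and without Catnip, Dreamer, Ollie or RimRun (FDR 0.0602 to 0.128). CIITA fell by 0.73 ± 0.23 in ISF (FDR 0.0415), a call lost without the 96-hour libraries of Dealings and Dreamer (FDR 0.161), without Catnip, Dreamer, Flash, Lurie or Ollie (FDR 0.059 to 0.161), and in 3 other fits. In SF the limma fit had 0 members at an unadjusted p under 0.05 in this interval, and limma voom on recovered reads called 0.

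From 6 to 10 days 2 genes fell in ISF, beside 5.44% of all genes, and none was called in SF, where limma called 4.78% of all genes. CD74 fell by 1.55 ± 0.31 (FDR 0.000326) and CIITA by 0.98 ± 0.24 (FDR 0.00306) in ISF, and both were lower in 7 of 7 horses. In SF 3 members had an unadjusted p under 0.05 in limma, CD40, CD83 and CD274, and limma voom on recovered reads called 0. With the horse as a block CD274 was called higher in SF (0.95, FDR 0.0454), and without the 6-day SF library of Moon CD40 was (0.57, FDR 0.0138).

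Between 0 hours and 10 days 4 genes rose in ISF, beside 36.1% of all genes, and 2 fell, beside 38.4%. In SF 5 rose, beside 34.7% of all genes, and 3 fell, beside 34.9%. CIITA was 15.3-fold lower at 10 days than before culture in ISF and 2.31-fold lower in SF, by group means, and CD74 6.45-fold and 1.95-fold lower. CD83 was 5.64-fold higher in ISF and 7.93-fold in SF, CD86 5.59-fold and 3.76-fold, and CD80 3.27-fold and 1.94-fold. CD40 was called lower in SF (-0.47 ± 0.16, FDR 0.00959), a call lost without Dreamer (FDR 0.085), and its change in ISF was -0.22 ± 0.16 (FDR 0.211), called without Moon (-0.31, FDR 0.0336). PDCD1LG2 rose in ISF (0.78 ± 0.32, FDR 0.0268) and in SF (1.40 ± 0.32, FDR 0.000119), the first call being lost without Catnip, Dealings or Dreamer (FDR 0.0609 to 0.0922) and with limma voom (FDR 0.0571). CD274 rose in SF (1.196 ± 0.36, FDR 0.00247), while its change in ISF was 0.39 ± 0.36 (FDR 0.323).

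Ordered by their mean log2 level, the fewest neighboring groups lay within their spread for CIITA and CD83. For CIITA the order was before culture, SF at 48 hours, SF at 96 hours, SF at 10 days, ISF at 48 hours, SF at 6 days, ISF at 96 hours, ISF at 6 days and ISF at 10 days, and 5 of the 8 steps between neighbors were within their pooled SD. The steps beyond it were those below the level before culture, between ISF at 96 hours and 6 days, and between ISF at 6 and 10 days. For CD83 the order ran from SF at 10 days through SF at 6 days, ISF at 10 days, SF at 96 hours, ISF at 6 days, ISF at 96 hours, ISF at 48 hours and SF at 48 hours to the level before culture, with 5 of 8 steps within the pooled SD.

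For CD74 and CD80, 7 of the 8 steps were within the spread. CD74 stood apart only in ISF at 10 days, the lowest group, and CD80 was highest in ISF at 10 and 6 days, with a step beyond the spread to SF at 10 days. CD86 had 6 steps within the spread and was highest in ISF at 6 days and lowest before culture. For CD40, CD274 and PDCD1LG2 all 8 steps were within the spread. CD40 was highest before culture and lowest in SF at 96 hours, and CD274 and PDCD1LG2 were both highest in SF at 10 days and lowest before culture.

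The genes with the most similar pattern to each member over the 68 libraries were found by Pearson correlation of log2 values among all tested genes with a symbol, as a description, since the libraries share horses and conditions. For CD74 they were the class II genes DRA (r = 0.96), DQB (0.94) and HLA-DMA (0.88), and for CIITA HLA-DOA (0.92), 1 DRB entry (0.88) and PVRIG (0.88). For CD83 they were MITF (0.95) and PECR (0.94), for CD86 FUCA1 (0.92), GPR34 (0.92) and ACP2 (0.92), and for CD80 CERS6 (0.86), BMP1 (0.84) and ARHGEF40 (0.83). The remaining members had lower values, with IFIH1 (0.79) first for CD274, SERPINB9 (0.78) for PDCD1LG2 and RHBDD2 (0.74) for CD40.

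Other genes of the same pathways were read from lists. Among 20 tested costimulatory partners and related ligands, 2, 2, 5 and 4 were higher and 0, 3, 9 and 6 were lower in ISF at 48 hours, 96 hours, 6 days and 10 days. As shares of all genes, 0.872%, 6.16%, 16.7% and 9.95% were higher and 0.81%, 4.3%, 13.6% and 10.8% lower at these times. Limma voom on recovered reads called 0 of the 20 at 48 hours, so the calls at that time were lost. CD276, a relative of CD80 and CD274, had a mean of 0.53 GeTMM before culture, 148 in ISF and 39.1 in SF at 6 days (log2 fold change 2.15, FDR 3.9e-06). TNFSF9, the ligand of the costimulatory receptor 4-1BB, had means of 18.5 GeTMM in ISF and 3.09 in SF at 6 days (2.22, FDR 1.2e-09), and TNFRSF4, the receptor OX40 of activated T cells, had means of 25.8 and 165 GeTMM (-2.69, FDR 4.6e-05). CD40LG, the ligand of CD40, was at 0.702 GeTMM in ISF and 2.02 in SF at 6 days (-0.70, FDR 0.0427) and at 0.218 and 1.94 at 10 days (-1.11, FDR 0.00395).

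The proteases and other factors of the class II compartment did not share 1 direction. Of 8 tested genes, 1, 1, 2 and 2 were higher and 0, 2, 3 and 0 were lower in ISF at the 4 time points, beside the same shares of all genes. CTSL, a protease that can trim CD74, had means of 193 GeTMM in ISF and 67.9 in SF at 6 days (log2 fold change 1.46, FDR 0.000112) and of 558 and 69.6 at 10 days (2.92, FDR 5.1e-10). CTSS, the protease that trims CD74 in most antigen presenting cells, was lower in ISF at 6 days (1869 against 2652 GeTMM, -0.49, FDR 0.0145), and MARCHF1, which removes class II molecules and CD86 from the cell surface, was lower too (7.76 against 13.3 GeTMM, -0.57, FDR 0.0415; -0.86, FDR 0.00011, without the SF library of Moon).

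Class I peptide loading genes, which serve CD8 T cells, were called in both directions. Of 14 tested, limma and limma voom on recovered reads called 0 at 48 and at 96 hours, when 2 and 5 had an unadjusted p under 0.05. In limma 4 were higher and 2 lower in ISF at 6 days, beside 16.7% and 13.6% of all genes. At 10 days 2 were higher and 3 lower, beside 9.95% and 10.8% of all genes. B2M, the light chain of class I molecules, was lower in ISF at 6 days (log2 fold change -0.76, FDR 0.0102), and ERAP2, which trims peptides for class I, was higher (28.3 against 12.8 GeTMM, 1.31, FDR 0.00039). CALR, a chaperone of class I assembly, was higher at 6 days (0.70, FDR 0.000324) and at 10 days (0.76, FDR 0.000424).

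Some list counts changed without the libraries that stood apart or correlated best with another horse. Without the 96-hour libraries of Dealings and Dreamer from ISF, the calls at 96 hours went from 1 to 0 for the class II chains, from 2 to 0 for the promoter factors, from 2 to 1 for the interferon gamma genes, from 5 to 4 for the costimulatory partners, and from 3 to 2 for the dendritic cell and the macrophage markers. Without the 6-day SF library of Moon, the calls at 6 days went from 5 to 4 for the class II chains, where MHCB3 was lost (-0.56, FDR 0.165), from 4 to 6 for the interferon gamma genes, and from 5 to 3 for the neutrophil precursor markers. At 6 days the class II compartment then had 3 genes higher and 2 lower, and class I peptide loading 5 higher and 1 lower, while the B cell, T cell and costimulatory partner counts were 7, 5 and 14 as before.

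All 7 macrophage markers tested rose from 0 to 48 hours in both fluids, beside 25.3% of all genes in ISF and 22.3% in SF. CD86 and CD83 rose in this interval too. Between the fluids, 1 was higher and 0 lower in ISF at 48 hours, beside 0.872% and 0.81% of all genes. At 96 hours 2 were higher and 1 was lower, beside 6.16% and 4.3%. At 6 days 1 was higher and 1 was lower, beside 16.7% and 13.6% of all genes. At 10 days 1 was higher and 0 lower, beside 9.95% and 10.8% of all genes. Their summed level was 183.7 to 307 GeTMM before culture, 14661 to 100396 in ISF and 20627 to 99905 in SF at 6 days. MSR1, a scavenger receptor, had means of 1176 GeTMM in ISF and 245 in SF at 6 days (log2 fold change 2.27, FDR 3.8e-08), and GPNMB, a glycoprotein of lipid-laden macrophages, was lower in ISF (-1.30, FDR 0.000379). Of 6 neutrophil precursor markers, 5 were lower in ISF at 6 days and 3 at 10 days, and of 5 stromal markers 0 (0 at an unadjusted p under 0.05, and 0 with limma voom) and 5 were lower at these times, with up to 4038 summed GeTMM in 1 SF library at 10 days. The shares of all genes called lower at 6 and 10 days, given above for the macrophage markers, stand beside these counts too. With limma voom on recovered reads 5 of the neutrophil precursor markers were called at 6 days and 0 at 10 days, and 2 of the stromal markers at 10 days. The part of these cell types in the levels of the 8 genes was not tested.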

How the data were processed

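RNA of BMNC from 8 horses was sequenced in 68 libraries. The authors trimmed reads (TrimGalore), mapped them to EquCab 3.0 (STAR 2.7.2a), counted reads per gene of an Ensembl annotation and converted the counts to GeTMM. The deposited GeTMM values resemble RPKM (reads per kilobase, scaled between libraries with TMM factors) and had no logarithm taken. Per the labels, reads were stranded pairs. Which strand was counted is not given in the sources used here.

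Samples were grouped by the fluid and time on their labels, and gene lists were matched by symbol. The 14570 genes that reached 0.5 GeTMM in 7 or more libraries were tested as log2(GeTMM + 1) with limma 3.58.1 in R 4.3.3 (lmFit, eBayes with a trend), in 1 fit of 9 groups without a horse term. Tests were two-sided, with p-values adjusted by the Benjamini-Hochberg method over all genes tested, with calls at an FDR under 0.05. ISF was compared with SF at 4 times, each fluid was followed over its intervals, and interaction terms tested changes of the fluid difference. Counts of horses compare cultures of the same animal. Libraries of 1 group came from different horses.

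The 8 genes and the other lists were chosen with earlier results of these data known. All 8 genes were to be named, with counts for each other list, up to 4 genes per list with the largest absolute log2 fold change at 6 days, and the 3 genes most correlated with each member. IRF1, CTLA4, PDCD1, CD40LG and MHCB3 were named after their values were seen. Some genes that the rule names are not reported here.

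Whole reads were recovered from the steps between GeTMM values (within 0.02 reads), for all 19286 genes above 0 in at least 8 libraries. The recovered reads gave depths of 15.7 to 36.0 M reads on genes, and limma voom on them was an alternative. If all reads of a library shared a whole factor, this would not show. Between 43.2% and 50.1% of the read numbers from 1 to 60 were even in each library. The main fit was tested on simulated data for the comparisons of ISF with SF, and the recovery of reads on simulated reads. The alternative fits and the other comparisons were not tested in this way. The simulated libraries of a horse were independent of each other. ISF and SF cultures of the same animal pair by design, and their deviations from group means had correlations between 0.407 and 0.563 (48 hours), -0.217 and 0.508 (96 hours), 0.154 and 0.545 (6 days), and 0.0743 and 0.363 (10 days). Alternatives were a pseudocount of 0.1, no filter, the horse as a block, only the groups compared, rescaling by the median of ratios, library weights, leaving out each horse or the doubted libraries, and a minimum of 1 for the absolute log2 fold change. Tables and figures were made with Python 3.11.15, pandas 2.3.3 and matplotlib 3.10.9.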

Additional observations from a re-analysis of the deposited data

Results flagged for a closer look

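In 7 of 72 combinations of gene and group, 1 library lay apart from the others, with a gap to its neighbor that took more of the whole range than the 95% critical value allows. Chance gives this in about 1 in 20 groups. In ISF at 48 hours, RimRun had the lowest level of CIITA (3.86 GeTMM, gap of 0.717 of the range) and of CD74 (672 GeTMM, 0.593). The other 6 libraries were at 9.03 GeTMM or more of CIITA.

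CD40 was highest in the SF library of Moon at 6 days (46.4 GeTMM, gap of 0.681), and CD83 was lowest in the ISF library of Flash at 96 hours (75.8 GeTMM, 0.648). CD274 was highest before culture in Dealings (4.07 GeTMM, gap of 0.68) and in ISF at 96 hours in Moon (6.36 GeTMM, 0.746), with the other libraries below 1 GeTMM in both groups. PDCD1LG2 was highest before culture in Ollie (2.57 GeTMM, gap of 0.626).

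The difference between ISF and SF changed from 48 hours to 10 days for CIITA, by -1.63 on the log2 scale (interaction term in limma, FDR 0.0032). It was called with all 18 alternative settings, at -2.19 to -1.50 (FDR 0.00016 to 0.0303).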

How the results depend on the processing

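Over 78 pairs of a member and a comparison and 18 settings, 1293 of 1404 values kept their direction and side of the threshold, 61 calls were lost, 43 were gained, and the 7 that turned direction were never called: at 48 hours CD80 with limma voom (0.013) and over horses left out (-0.15 to 0.068), CD274 (-0.031 to 0.19) and PDCD1LG2 with library weights (0.20) and over horses left out (-0.23 to 0.15), and at 6 days CD274 (-0.35 to 0.051).

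Numbers of members called moved as follows, and the cause was not tested. Shares of all genes called were taken in the main fit alone. Counts from alternative fits, here and above, therefore have no such share beside them. Whether they moved with the calls over all genes is not shown. At 96 hours ISF against SF gave 3 with the horse as a replicate block, 2 with only the groups compared, 3 with library weights, 2 without the SF library of Moon, 0 without the 96-hour libraries of Dealings and Dreamer in ISF, and 0 to 2 without 1 horse. At 6 days it gave 7 with library weights and 3 to 6 without 1 horse, and at 10 days 3 to 5 without 1 horse. In ISF, 48 to 96 hours gave 3 with the block, 5 with weights and 1 to 3 without 1 horse, and 96 hours to 6 days gave 1 without a filter, 0 with only the groups compared, 1 without the libraries of Dealings and Dreamer, 1 with limma voom and 0 to 2 without 1 horse. In SF, 48 to 96 hours gave 4 with weights, and 6 to 10 days gave 1 with the block, 1 with weights, 1 without the SF library of Moon and 0 to 1 without 1 horse. The change of the fluid difference gave 2 with weights from 48 hours to 10 days, and 1 with the block and 0 to 1 without 1 horse from 6 to 10 days. With a minimum of 1 for the absolute log2 fold change, ISF against SF gave 1 at 6 days and 2 at 10 days, ISF gave 3, 0, 0 and 1 over its 4 intervals, and SF gave 2 and 0 over the first 2 and 5 from 0 hours to 10 days. The block changed no call of a member beyond those printed with the results. With at most 308 reads per library, CD274 and PDCD1LG2 are the least precisely measured.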
